A study of Mus musculus with 9 samples.

Results

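Aminoacyl-tRNA synthetases are the enzymes that join each amino acid to its transfer RNA. The set described here was made of 36 nuclear genes out of 49671 genes in the deposited count table. They were chosen by symbol from a list of the synthetase family, by no rule on measured values but with earlier results of these data known. Of these, 20 encode cytosolic enzymes and 16 encode mitochondrial enzymes, whose symbols end in 2. All 36 were found by gene identifier and all 36 passed the filter on low counts, so that every member was tested.

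Translation in the cytosol and in mitochondria needs a full set of charged transfer RNAs in each compartment. Most cytosolic synthetases have a separate mitochondrial counterpart, while Gars, Kars and Qars have none among the members: Gars and Kars each encode a cytosolic and a mitochondrial form of their enzyme, and in mitochondria the glutamine transfer RNA is charged by an indirect route that starts with the glutamyl enzyme of Ears2. Several cytosolic synthetases are held together with scaffold proteins in the multisynthetase complex. Many cytosolic synthetase genes are known targets of ATF4, a transcription factor of the amino acid response, and T cells that leave rest are known for a large increase in protein synthesis.

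The RNA came from splenic CD3+ T cells of female F1 mus x cast mice, a cross of C57BL/6 mothers that carried a heterozygous Xist deletion with castaneus fathers, so that inactivation of the X chromosome is skewed in all 3 groups alike. Each group held 3 libraries. Unstimulated cells went into TRIzol straight after column enrichment of CD3+ cells. Stimulated cells were cultured for 48 hours on plate-bound anti-CD3 at 1 µg/ml with soluble anti-CD28 at 10 µg/ml, and inhibitor cells were cultured in the same way with IMD-0354 at 2.5 µM, an inhibitor of the kinase IKK-beta, which acts upstream of NF-kB. The labels give no ages and name neither a vehicle control nor cells cultured without stimulation, so that stimulation and culture cannot be told apart. They call the samples biological replicates without saying that each came from its own animal, so that a p-value sets a difference against the scatter of these libraries, part of which may be technical.

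Total counts ranged from 34009988 to 56221174 per library. At this depth the member with the fewest counts, Pars2, still had 215 in the shallowest case. In inhibitor replicate 1 the number of genes with any count was 30106, beside 20547 to 23223 in the remaining libraries. Markers of T cells were present in all 9 libraries, with a summed level of 2460 to 3840 CPM (counts relative to the TMM-adjusted library total) in unstimulated, 2970 to 3150 in stimulated and 2880 to 2990 in inhibitor libraries. Markers of other cells were higher before culture. The sum of 10 B cell markers was 561 to 1520 CPM in unstimulated, 69.9 to 79.5 in stimulated and 152 to 153 in inhibitor libraries, and that of 14 myeloid and dendritic cell markers was 1190 to 3170, 15.1 to 18.9 and 35.3 to 64.3 CPM in the same order, with 2 of these 14 at 0 in all 3 stimulated libraries. The 8 NK cell markers summed to 399 to 449, 35.6 to 44.3 and 35.6 to 43.1 CPM, although between stimulated and inhibitor cells 6 of the 8 were lower and Eomes was higher (15.7 and 33.1 CPM). The 10 markers of erythroid cells and platelets summed to 40.5 to 613, 4.41 to 8.15 and 4.90 to 15.4 CPM. The part of these cells in the synthetase results was not tested.

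Promoter windows of the members were read from the RefSeq table of build GRCm38.p6, which holds 250 bases before to 50 bases after a gene's start, for 13 of the 20 cytosolic and 14 of the 16 mitochondrial members. They were searched on both strands for TGATGNAA, the core of the sites that ATF4 binds with its partners, for CACGTG, the E-box bound by MYC among others, and for the kappaB consensus bound by NF-kB. TGATGNAA was found in 5 of the 13 cytosolic members with a window (Aars, Gars, Iars, Tars and Yars) and in 0 of the 14 mitochondrial members, beside 3.97% of all 32851 windows of this length in the table. CACGTG was found in Aars, Farsb, Iars and Tars and in the mitochondrial member Ears2, beside 7.15% of all windows. The kappaB consensus was found in Iars and Iars2, beside 8.46% of all windows. No TGATGNAA match overlapped a CACGTG match in these members. The stretches below are shown because a match lies upstream of the annotated start and outside the exons of GENCODE M21. Aars also has upstream matches, CACGTG at -146 and TGATGNAA at -112. They lie in bases that GENCODE M21 places in an exon, and such bases are left out here. Each stretch is written on the gene's strand in lower case with the TGATGNAA or CACGTG match in capitals. The kappaB match of Iars is left in lower case. The Gars stretch lies at chr6:55037751-55038000 on the plus strand and its capitals are TGATGNAA read on the opposite strand, beginning 30 bases before the start. The Tars stretch lies at chr15:11399666-11399908 on the minus strand, with the same motif on the opposite strand 15 bases before the start. The Iars stretch lies at chr13:49681880-49682099 on the plus strand and the Farsb stretch at chr1:78488898-78489147 on the minus strand, both with CACGTG in capitals.
Gars: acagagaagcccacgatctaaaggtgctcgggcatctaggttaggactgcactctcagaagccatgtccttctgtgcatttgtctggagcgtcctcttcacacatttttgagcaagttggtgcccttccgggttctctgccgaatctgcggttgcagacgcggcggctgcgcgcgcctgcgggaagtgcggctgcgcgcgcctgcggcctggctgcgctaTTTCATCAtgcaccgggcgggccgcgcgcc
Tars: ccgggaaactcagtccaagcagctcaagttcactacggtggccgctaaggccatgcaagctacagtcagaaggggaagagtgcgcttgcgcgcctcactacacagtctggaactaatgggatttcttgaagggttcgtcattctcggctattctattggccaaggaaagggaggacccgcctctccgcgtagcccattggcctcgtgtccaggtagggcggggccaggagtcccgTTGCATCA
Iars: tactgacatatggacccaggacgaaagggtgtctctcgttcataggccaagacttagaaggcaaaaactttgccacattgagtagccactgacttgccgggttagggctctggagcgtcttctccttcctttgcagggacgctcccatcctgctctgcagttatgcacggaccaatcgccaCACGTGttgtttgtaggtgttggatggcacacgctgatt
Farsb: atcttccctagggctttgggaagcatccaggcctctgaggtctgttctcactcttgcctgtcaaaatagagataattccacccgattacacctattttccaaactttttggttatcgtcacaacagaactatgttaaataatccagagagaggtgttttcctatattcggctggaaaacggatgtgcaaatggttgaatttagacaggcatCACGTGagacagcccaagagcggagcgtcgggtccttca
In Gars, Iars and Tars, as in Aars and Yars, the gene belongs to the synthetases known as ATF4 targets, and Farsb does not. A match of letters describes these windows only and says nothing about binding in these cells.

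Stimulation came with higher RNA of every cytosolic synthetase. All 20 rose by at least 2-fold, with log2 fold changes from 1.03 to 2.85 and a median of 2.11. The mitochondrial synthetases were split: 10 of 16 rose, 2 fell and 4 did not pass the test, with a range of -0.60 to 1.03 and a median of 0.62. Across all 18374 genes tested, 66.0% were called, 32.0% were higher, 34.0% were lower, 19.5% were higher by at least 2-fold and 23.2% lower by at least 2-fold, and the median log2 fold change was -0.05. Calls are from the quasi-likelihood test of edgeR with Benjamini-Hochberg adjustment over all genes and a threshold of 0.05, and the same test gives each adjusted p below. The summed level of the 20 cytosolic members was 1280 ± 98.9 CPM (SD, n = 3) in unstimulated and 5450 ± 247 in stimulated cells, a ratio of 4.28. The 16 mitochondrial members together went from 387 ± 5.54 to 556 ± 40.5 CPM, a ratio of 1.44.

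**Figure D1:**
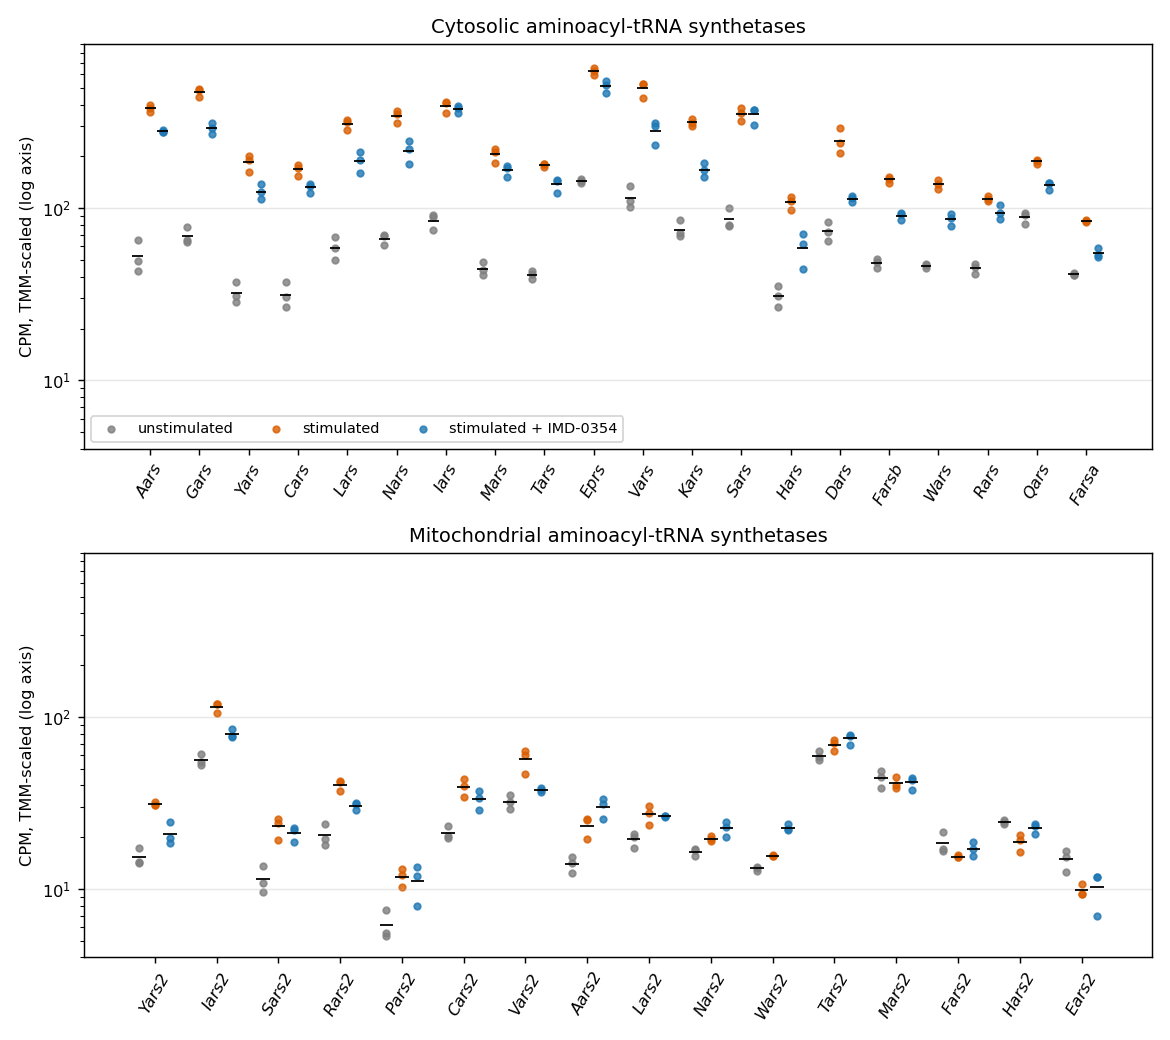
Level of each synthetase in each of the 9 libraries, in CPM on a log scale, with cytosolic members in 1 panel and mitochondrial members in the other; points are libraries, coloured by group, and short lines are group means. The 20 cytosolic members show unstimulated points below all stimulated points. In 14 of the 16 mitochondrial members the unstimulated and stimulated points do not overlap either, with smaller gaps, some of them downward. The share of all genes without such overlap was not computed.

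The largest rises were those of Aars, Gars, Yars and Cars. Aars, which charges alanine (ENSMUSG00000031960, chr8:111033144-111057664, plus strand, GRCm38), stood at 49.2, 65.3 and 43.2 CPM in the unstimulated libraries and at 360, 383 and 397 in the stimulated ones. Its log2 fold change was 2.85 (SE 0.14, adjusted p = 1.2e-07), or 7.23-fold. Gars, which charges glycine in both compartments (ENSMUSG00000029777, chr6:55038007-55079500, plus strand), had 65.0, 77.5 and 63.7 CPM before and 445, 493 and 488 CPM after stimulation, a log2 fold change of 2.79 (SE 0.10, adjusted p = 2.2e-08). In both genes the lowest stimulated library was several times above the highest unstimulated library.

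Yars, the tyrosyl enzyme, rose from 28.7, 37.4 and 30.8 CPM to 163, 191 and 200 CPM (log2 fold change 2.51, SE 0.13, adjusted p = 1.6e-07). Cars, the cysteinyl enzyme, rose from 30.6, 37.4 and 26.7 CPM to 154, 171 and 178 CPM (2.41, SE 0.13, adjusted p = 1.8e-07). These 4 genes carry the highest folds of the class. All 4 are in the list of known ATF4 targets, which holds 13 of the 20 cytosolic members. That list was chosen with earlier results of these data known, and a part of ATF4 in these rises was not tested.

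The smallest rises of the class were still about 2-fold. Farsa, the catalytic subunit of the phenylalanyl enzyme (ENSMUSG00000003808), was at 40.9, 42.3 and 40.7 CPM in unstimulated and 84.9, 82.9 and 84.8 CPM in stimulated libraries, a log2 fold change of 1.03 (SE 0.08, adjusted p = 1.9e-06). Its partner subunit gene Farsb rose more, by 1.61 (SE 0.08, adjusted p = 1.2e-07). Qars, the glutaminyl enzyme, went from 91.4, 93.4 and 81.5 to 181, 188 and 191 CPM, a log2 fold change of 1.07 (SE 0.08, adjusted p = 1.5e-06). Neither gene's groups overlapped.

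The other 13 cytosolic members rose by 1.34 (Rars) to 2.39 (Lars) on the log2 scale. Kars, whose products charge lysine in both compartments, went from 68.6, 84.9 and 72.0 CPM to 301, 332 and 312 CPM (2.07, SE 0.10, adjusted p = 1.4e-07). Eprs, a fused glutamyl and prolyl enzyme, rose from a mean of 144 to 627 CPM (2.12). Mars, the methionyl enzyme, rose by 2.21, and its gene shares 68 bases with Ddit3 on the opposite strand, whose own mean went from 9.98 to 25.8 CPM. The strand setting of the counting is not given in the sources used here, so that reads of the shared stretch cannot be told apart.

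Since all 20 cytosolic members rose, any subgroup of them rose in full, and the lists differ only in their medians. Each list below was chosen with earlier results of these data known, and the counts describe it without a test. The 8 synthetases of the multisynthetase complex had a median of 2.09. In the structural classes of the family, the 9 class I enzymes had a median of 2.21 and the 10 class II enzymes one of 2.05. The fused enzyme Eprs was put in neither class. The 13 members known as ATF4 targets had a median of 2.21, and the other 7 (Dars, Farsa, Farsb, Hars, Kars, Qars and Rars) had a median of 1.61.

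Among the mitochondrial enzymes the largest rises were those of Yars2, Iars2 and Sars2, each about 2-fold. Yars2, the tyrosyl enzyme of mitochondria, had 14.4, 14.1 and 17.3 CPM in unstimulated and 30.7, 30.6 and 31.9 CPM in stimulated libraries (log2 fold change 1.03, SE 0.13, adjusted p = 7.5e-05). Iars2, the isoleucyl enzyme, went from 55.0, 60.6 and 52.5 to 105, 119 and 118 CPM (1.02, SE 0.09, adjusted p = 4.5e-06). Sars2, the seryl enzyme, went from 10.9, 13.6 and 9.58 to 19.3, 25.6 and 24.2 CPM (1.02, SE 0.16, adjusted p = 0.00032). The groups of all 3 genes were apart.

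Ears2 and Hars2 were the 2 members that fell on stimulation. Ears2, which supplies the glutamyl enzyme of mitochondria, had 15.4, 12.5 and 16.7 CPM in unstimulated and 9.31, 10.7 and 9.38 CPM in stimulated libraries, a log2 fold change of -0.60 (SE 0.21, adjusted p = 0.026). That call was lost when any 1 of 4 libraries was left out (unstimulated replicate 1 or 3, stimulated replicate 1 or 3), with an adjusted p of up to 0.086. Hars2, the histidyl enzyme, had 25.1, 24.0 and 24.5 against 16.3, 19.2 and 20.6 CPM, a log2 fold change of -0.39 (SE 0.11, adjusted p = 0.013), and its call was lost without stimulated replicate 1 and without the low-count filter.

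Hars2 lies head to head with its cytosolic counterpart Hars, and the gene bodies share 198 bases on opposite strands. Hars rose in the same libraries in which Hars2 fell: 31.1, 35.1 and 26.7 CPM became 97.4, 116 and 110 CPM (1.80, SE 0.17, adjusted p = 7.6e-06). Reads of the shared bases cannot be told apart without a stated strand setting, and their number was not measured here.

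Of the remaining mitochondrial members, Aars2, Cars2, Lars2, Pars2, Rars2, Vars2 and Wars2 rose. Vars2, the valyl enzyme, had 29.3, 35.2 and 32.0 CPM before and 46.4, 63.1 and 60.4 CPM after stimulation (0.82, SE 0.13, adjusted p = 0.00024). Aars2, the alanyl enzyme, went from 15.3, 14.1 and 12.3 to 19.5, 25.5 and 25.0 CPM (0.75, SE 0.15, adjusted p = 0.0015). The rise of Wars2, the tryptophanyl enzyme, was small, from 13.3, 12.7 and 13.4 to 15.5, 15.6 and 15.7 CPM (0.24, SE 0.10, adjusted p = 0.049), and lost its call in 18 of 19 alternative analyses. Fars2 (-0.25), Mars2 (-0.09), Nars2 (0.25) and Tars2 (0.22) did not pass the test. Among the alternatives Tars2 was called higher in 4 and Fars2 lower in 3, and Mars2 lower and Nars2 higher in 1 each.

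Lars2, the leucyl enzyme of mitochondria (ENSMUSG00000035202, chr9:123366927-123462666, plus strand), is known as a gene whose count can take up reads of ribosomal RNA. It had 20.9, 20.1 and 17.3 CPM in unstimulated, 23.4, 30.4 and 27.8 in stimulated and 26.7, 26.7 and 26.1 in inhibitor libraries, and its rise on stimulation was 0.48 (SE 0.12, adjusted p = 0.0055). In the 9 libraries the mitochondrial ribosomal RNA mt-Rnr2 ranged from 414 to 13400 CPM, mt-Rnr1 from 728 to 23700 CPM and Gm42418, a gene model over ribosomal RNA sequence, from 11500 to 27400 CPM. The 3 inhibitor libraries held mt-Rnr2 at 703, 6000 and 13400 CPM while Lars2 read 26.7, 26.7 and 26.1 CPM. Lars2 was not set against Gm42418 library by library, and uptake of ribosomal RNA reads was not tested. Lars2 had the lowest level per kilobase of exon of all 36 members in unstimulated cells, 1.75 CPM per kb. That value rests on the union of all its annotated exons, 11089 bases.

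**Figure D2:**
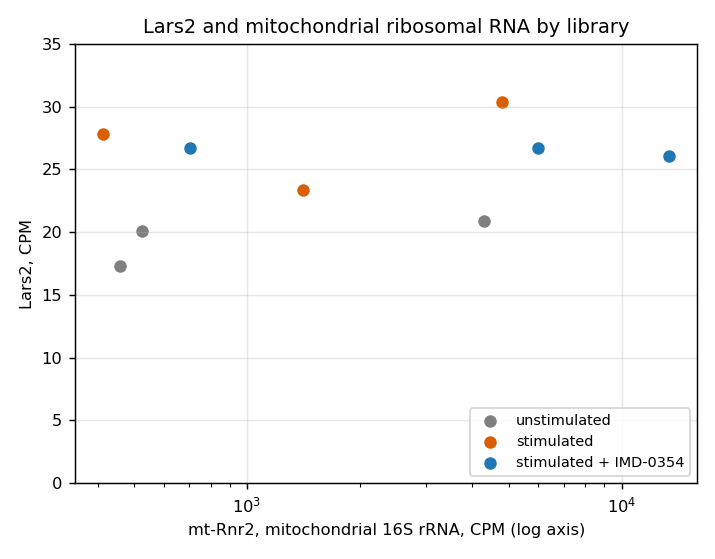
Lars2 in CPM on the vertical axis against the mitochondrial ribosomal RNA mt-Rnr2 in CPM on a log axis, each point being a library coloured by group. Lars2 lies between 17.3 and 30.4 CPM over a range of mt-Rnr2 from 414 to 13400 CPM.

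With IMD-0354, 18 of the 20 cytosolic synthetases were lower than in stimulated cells, and Iars and Sars, both with an estimate below 0, did not pass the test. The median log2 fold change of the 20 was -0.59, with a range of -1.12 to -0.02, and 1 member, Dars, was lower by at least 2-fold. Among the 16 mitochondrial members 4 were lower (Iars2, Rars2, Vars2 and Yars2), 1 was higher (Wars2) and 11 did not pass, with a median of -0.01. Of all genes tested, 44.5% were called in this comparison, 21.7% were higher, 22.8% were lower and 10.8% were lower by at least 2-fold, and the median was 0.03. With upper-quartile scaling, which moved that median to 0.16, 13 cytosolic members were lower and 4 mitochondrial members (Aars2, Hars2, Tars2 and Wars2) were higher. The cytosolic sum was 3860 ± 313 CPM with the inhibitor (SD, n = 3), 0.707 of the stimulated sum, and the mitochondrial sum was 502 ± 31.3 CPM, 0.904 of it.

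Dars, the aspartyl enzyme of the cytosol (ENSMUSG00000026356, chr1:128363707-128417368, minus strand), had 64.3, 83.5 and 73.0 CPM in unstimulated, 291, 238 and 208 in stimulated and 109, 117 and 114 in inhibitor libraries. Its log2 fold change with the inhibitor was -1.12 (SE 0.13, adjusted p = 9.8e-05), or 2.17-fold lower. Kars followed, from 301, 332 and 312 down to 152, 166 and 182 CPM (-0.92, SE 0.10, adjusted p = 6.8e-05). Both genes belong to the multisynthetase complex, and in both the highest inhibitor library was below the lowest stimulated library.

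Hars went from 97.4, 116 and 110 to 44.5, 61.7 and 70.5 CPM (-0.87, SE 0.16, adjusted p = 0.0019). Vars, the valyl enzyme of the cytosol, had 110, 134 and 101 CPM in unstimulated, 439, 526 and 526 in stimulated and 233, 301 and 311 in inhibitor libraries (-0.82, SE 0.14, adjusted p = 0.001). Gars fell to 271, 294 and 314 CPM (-0.70, SE 0.10, adjusted p = 0.00029). In these 3 genes inhibitor replicate 1 was the lowest of its group, as it was in 19 of the 20 cytosolic members. Without that library 15 of the 20 cytosolic members were called lower.

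Iars and Sars were the exceptions in the class. Sars, the seryl enzyme (ENSMUSG00000068739), had 99.7, 80.4 and 79.0 CPM in unstimulated, 323, 383 and 359 in stimulated and 305, 372 and 374 in inhibitor libraries, a difference of -0.02 (SE 0.12, adjusted p = 0.91). Iars, the isoleucyl enzyme (ENSMUSG00000037851), had 88.5, 91.2 and 74.3, then 359, 407 and 413, then 356, 391 and 382 CPM, a difference of -0.06 (SE 0.10, adjusted p = 0.64). In both genes the stimulated and inhibitor libraries overlapped. With upper-quartile scaling, which moved the median of all genes to 0.16, the differences were 0.11 and 0.07.

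The smallest falls that passed the test were those of Rars (-0.27), Eprs (-0.29), Mars (-0.31) and Cars (-0.34). The call of Rars was lost in 10 of 19 alternative analyses, that of Cars in 8, that of Mars in 6 and that of Aars (-0.44, SE 0.13, adjusted p = 0.019) in 4. Aars had 284, 279 and 277 CPM with the inhibitor, against 360, 383 and 397 CPM without. The other falls of the class were larger: Qars reached 127, 141 and 140 CPM (-0.45, SE 0.08, adjusted p = 0.0011), Farsa 51.9, 53.4 and 59.1 CPM (-0.62, SE 0.08, adjusted p = 0.00016) and Yars 113, 124 and 139 CPM (-0.56, SE 0.12, adjusted p = 0.0042).

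Compared with unstimulated cells, the inhibitor cells still had more RNA of all 20 cytosolic members, 14 of them by at least 2-fold, with a median of 1.69. Over all genes 52.4% were called in that comparison, 26.3% were higher and 10.8% were higher by at least 2-fold. This comparison shares its libraries with the other 2, so the values are set side by side and not tested against each other. Expressed as the share of the rise in mean CPM that was present with the inhibitor, the cytosolic members ran from 22.9% in Dars and 31.5% in Farsa to 94.5% in Iars and 98.5% in Sars, with a median of 54.4%. Eprs (76.0%), Mars (75.2%) and Cars (73.6%) were near the upper end, and Hars (36.3%) and Kars (38.3%) near the lower.

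**Figure D3:**
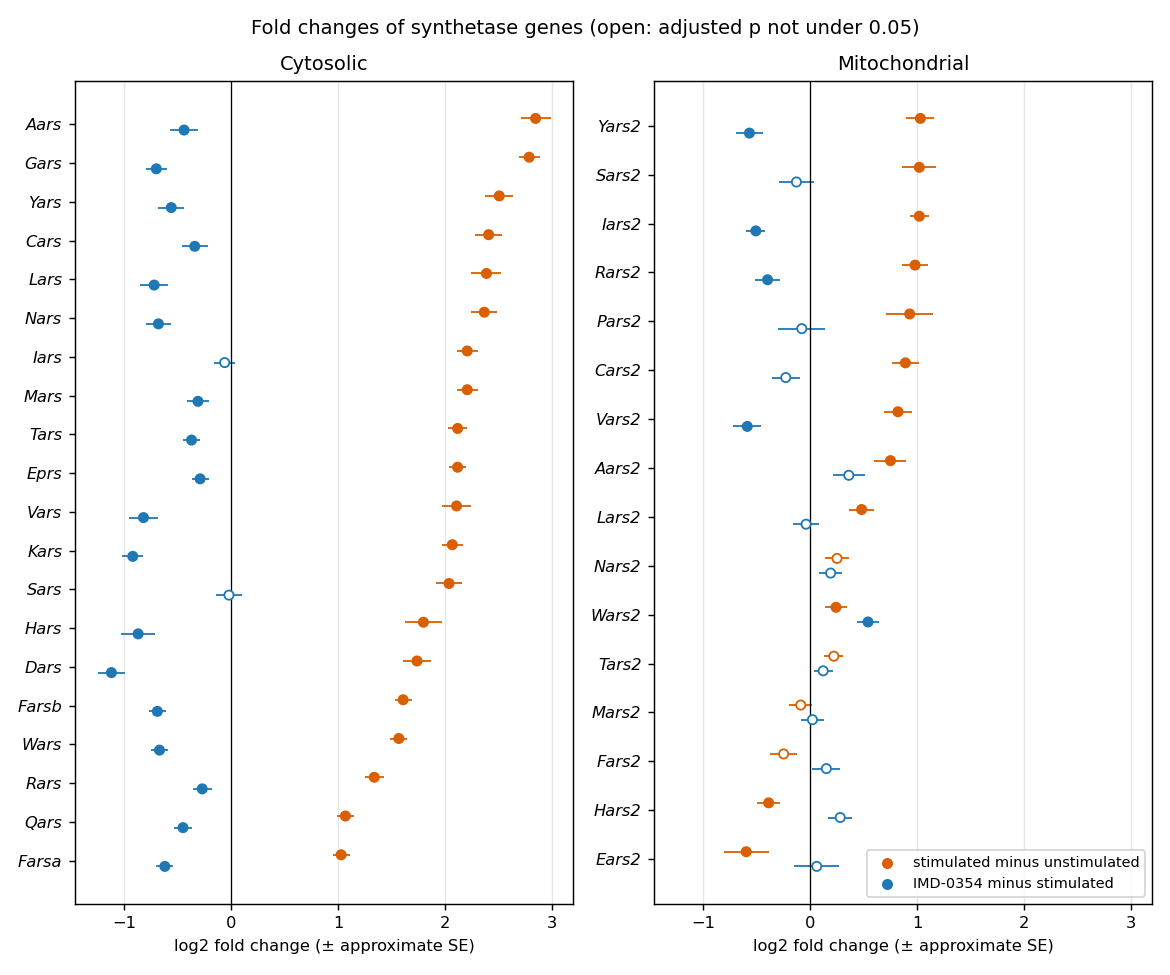
Log2 fold changes of the 36 members, with bars of 1 SE, for stimulated minus unstimulated and for IMD-0354 minus stimulated; filled points passed the test at an adjusted p of 0.05 and open points did not. All 20 cytosolic members lie to the right of 1 for stimulation, and 18 of them are filled points to the left of 0 for the inhibitor.

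Members known as ATF4 targets had the smaller falls with the inhibitor as a list. Their median was -0.44, with 11 of 13 lower and 2 not called (Iars and Sars). In the cytosolic members outside that list the median was -0.69, with 7 of 7 lower. Both counts follow from the 18 of 20 cytosolic members that were lower, beside 22.8% of all genes. Relative to unstimulated cells the medians were 1.90 and 0.92. The 8 members of the multisynthetase complex had a median of -0.38 and spanned nearly the full range, from Dars at -1.12 to Iars at -0.06. Class I enzymes had a median of -0.45 and class II enzymes of -0.68. No test was made of the differences between these lists.

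With the inhibitor 4 of 16 mitochondrial members were lower, which is near the 22.8% of all genes, and 1 of 16 was higher, beside 21.7% of all genes. Vars2 fell to 36.7, 38.6 and 37.4 CPM (-0.59, SE 0.13, adjusted p = 0.0035), below its 3 stimulated libraries. Yars2 fell to 18.5, 19.8 and 24.5 CPM (-0.57, SE 0.13, adjusted p = 0.0059) and Iars2 to 77.4, 76.7 and 85.3 CPM (-0.51, SE 0.09, adjusted p = 0.0011). Rars2, the arginyl enzyme, was lower by -0.40 (SE 0.12, adjusted p = 0.021), a call lost in 4 of 19 alternative analyses. All 4 had risen on stimulation.

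Wars2 was the single member called higher with the inhibitor. It had 13.3, 12.7 and 13.4 CPM in unstimulated, 15.5, 15.6 and 15.7 in stimulated and 22.2, 23.7 and 21.9 in inhibitor libraries, a log2 fold change of 0.54 over stimulated cells (SE 0.10, adjusted p = 0.0015), with no overlap of the groups. Within the Wars2 gene body on the same strand lies Gm43024, a gene model of the sense intronic type, whose mean was 8.68, 3.82 and 10.8 CPM in the same order of groups. Aars2, at 25.5, 31.1 and 33.1 CPM, was next at 0.36 (SE 0.15, adjusted p = 0.076); it passed the test in 5 of 19 alternative analyses, among them the one without inhibitor replicate 1. The inhibitor values of Sars2 (18.7, 22.5 and 22.1 CPM), Ears2 (6.99, 11.8 and 11.7 CPM) and Hars2 (20.8, 23.3 and 23.9 CPM) did not differ from stimulated cells at the threshold, nor did those of Lars2.

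Wars, the tryptophanyl enzyme of the cytosol, is known as an interferon-inducible gene. It had 44.7, 47.0 and 47.6 CPM in unstimulated, 130, 138 and 145 in stimulated and 79.1, 92.3 and 87.5 in inhibitor libraries. It rose by 1.57 on stimulation (SE 0.08, adjusted p = 1.9e-07) and fell by 0.67 with the inhibitor (SE 0.08, adjusted p = 0.00012). In a list of 12 genes of interferon gamma and its response, Ifng moved the same way as Wars, with 4.44 on stimulation and -1.05 with the inhibitor, and Socs1 did so too (2.41 and -1.66). In the same list 8 of 12 were higher with the inhibitor, beside 21.7% of all genes. Cxcl10 (3.04) and Iigp1 (2.76) led them, and Irf1 was among them (1.93).

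For 13 amino acids the cytosolic and the mitochondrial member share a symbol apart from the final 2, and these pairs were set side by side. Glutamate, proline and phenylalanine also have members in each compartment but were not paired. Their cytosolic members are Eprs, Farsa and Farsb, and their mitochondrial members are Ears2, Pars2 and Fars2. On stimulation the log2 fold change was higher in the cytosolic than in the mitochondrial member in 13 of 13 pairs, with a median difference of 1.52, from 0.36 for Rars and Rars2 to 2.31 for Mars and Mars2. With the inhibitor the cytosolic value was the higher in 4 of 13 pairs, with a median difference of -0.32. The largest gap there was that of Wars and Wars2, -1.21, since the cytosolic gene fell and the mitochondrial gene rose. For Iars and Iars2 the gap was 0.45 in the other direction. Among these differences, no test was made pair by pair.

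On the scale of CPM per kilobase of exon, the log2 ratio of Wars to Wars2 was 2.60 ± 0.07 in unstimulated, 3.93 ± 0.07 in stimulated and 2.72 ± 0.09 in inhibitor cells (SD, n = 3). For Tars and Tars2, the threonyl enzymes, the ratio went from -0.29 ± 0.16, with the mitochondrial gene the higher, to 1.61 ± 0.08 and 1.11 ± 0.03. For Rars and Rars2 it changed least on stimulation, going from 0.92 ± 0.23 to 1.27 ± 0.07 and 1.41 ± 0.15.

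**Figure D4:**
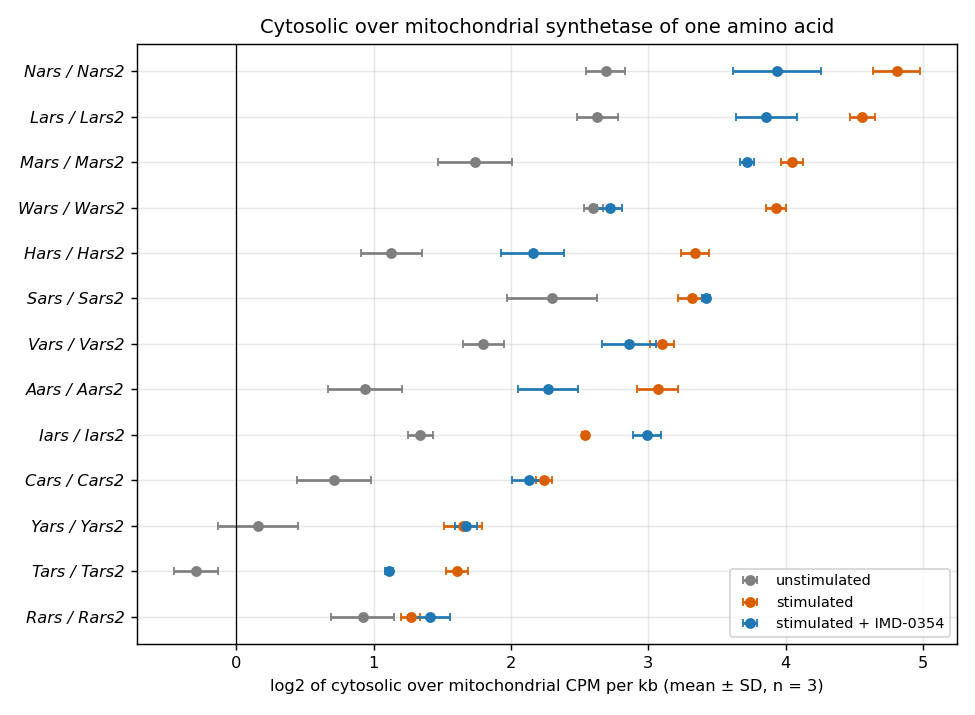
Log2 ratio of the cytosolic to the mitochondrial synthetase of each of 13 amino acids, in CPM per kilobase of exon; points are group means of 3 libraries and bars are SD, coloured by group. The stimulated means lie above the unstimulated ones in all 13 pairs, and for Tars and Tars2 the unstimulated mean is at -0.29 while the stimulated mean is at 1.61.

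Levels can be ordered across genes per kilobase of exon, with the union of all annotated exons of a gene as its length. This union can be longer than any 1 transcript, and the order depends on it. It is 18102 bases in Eprs, 11089 in Lars2 and 6932 in Tars2. In plain CPM Eprs was above Tars2 in unstimulated cells, with means of 144 and 59.3. Gars was the highest member in all 3 groups, at 22.0 ± 2.45 CPM per kb in unstimulated, 152 ± 8.53 in stimulated and 93.8 ± 6.88 in inhibitor cells (SD, n = 3). In unstimulated cells its level and that of the next member, Vars at 20.6 ± 3.04, differed by less than their spread, while in stimulated cells Vars followed at 88.6 ± 8.90. At the low end stood Lars2 in unstimulated cells (1.75 ± 0.169), next to Pars2 (1.99 ± 0.393) and within its spread. Ears2 was lowest in stimulated (1.90 ± 0.154) and inhibitor cells (1.98 ± 0.536), where Lars2 was next at 2.39 ± 0.0329, a gap smaller than the SD of Ears2. In unstimulated cells 5 cytosolic members (Aars, Cars, Eprs, Tars and Yars) lay below the highest mitochondrial member, Tars2 at 8.56 CPM per kb. In stimulated and inhibitor cells 0 of 20 did.

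Within groups the libraries had a pattern of their own. Unstimulated replicate 2 was the highest of its group in 15 of 20 cytosolic members, and the same library had the highest sums of B cell (1520 CPM), myeloid (3170 CPM) and erythroid (613 CPM) markers. Without it all 20 cytosolic members were again called higher on stimulation, with 9 mitochondrial members higher and 2 lower. Without both this library and inhibitor replicate 1, an analysis chosen after the data were seen, the cytosolic counts were 20 higher on stimulation and 16 lower with the inhibitor.

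Other genes of the charging pathway are given as lists, with counts on the same test. Of all genes 32.0% were higher on stimulation and, with the inhibitor, 21.7% were higher and 22.8% lower. The 3 scaffold proteins of the multisynthetase complex rose, Eef1e1 by 2.20, Aimp2 by 1.66 and Aimp1 by 1.37, and with the inhibitor Eef1e1 (-0.67) and Aimp2 (-0.47) fell while Aimp1 (-0.28) did not pass. All 5 elongation factors of the cytosol that receive the charged transfer RNA rose, led by Eef1g (1.43) and Eef1b2 (1.03). With the inhibitor 1 of the 5, Eef1a1, was higher (0.37) and the other 4 did not pass the test.

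On the mitochondrial side, Gatc, a subunit of the enzyme that makes glutamine on its transfer RNA, rose by 1.00 on stimulation, and Qrsl1, another subunit of it, fell by 0.62 with the inhibitor. All 4 mitochondrial elongation factors rose on stimulation, beside 32.0% of all genes, led by Tsfm (1.95) and Tufm (1.52). With the inhibitor all 4 fell, beside 22.8% of all genes lower, led by Tsfm (-0.94) and Gfm1 (-0.65).

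Counts of genes that mature transfer RNA are read beside 32.0% of all genes higher on stimulation and, with the inhibitor, 21.7% higher and 22.8% lower. Of 16 genes of splicing, end processing and export, 12 rose, led by the export receptor Xpot (2.04) and Pop1 (1.61), and with the inhibitor 5 were lower, led by Rpp30 (-0.97) and Elac2 (-0.85), and 1 was higher (Rtcb, 0.43). Of 24 modification enzymes 17 rose, led by the methyltransferases Mettl1 (1.67) and Nsun2 (1.63). With the inhibitor 6 of the 24 were higher, led by Trmt61a (1.17) and Trmt1 (0.77), and 4 were lower, led by Osgep (-0.53) and Trit1 (-0.47). Of 9 synthetase-like, editing and proofreading genes 5 rose, among them Dtd1 (1.24), and 3 fell with the inhibitor, led by Dtd2 (-0.94) and Dtd1 (-0.87).

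RNA polymerase III transcribes the transfer RNA genes. Of 15 genes of its subunits and regulators, 7 rose on stimulation, among them Polr3k (1.45), beside 32.0% of all genes. The 3 that fell, beside 34.0% of all genes, were led by the initiation factor Brf1 (-1.20) and the repressor Maf1 (-1.03). With the inhibitor 5 were higher, led by Polr3d (0.94) and Polr3e (0.82), beside 21.7% of all genes, and 4 were lower, led by Polr3k (-0.99) and Polr3gl (-0.64), beside 22.8%.

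Atf4 itself had 195, 158 and 152 CPM in unstimulated, 547, 541 and 570 in stimulated and 393, 406 and 405 in inhibitor libraries, a rise of 1.72 (SE 0.10, adjusted p = 3e-07) and a difference of -0.46 with the inhibitor (SE 0.10, adjusted p = 0.0031). Of 24 genes made up of Atf4 and known targets that are not synthetases, 22 rose on stimulation and 1 fell (Cebpb, -1.16). Vldlr (7.68) and Pycr1 (4.70) led the rises, and the median was 2.88. Of all genes 32.0% were higher and 34.0% lower on stimulation. With the inhibitor 15 of the 24 were lower, beside 22.8% of all genes, led by Vldlr (-3.70) and Ddit4 (-3.03). Atf5 was the 1 called higher (1.83), beside 21.7% of all genes, and the median was -0.66. In the same comparison the synthetases known as ATF4 targets had a median of -0.44. Atf4 protein was not measured.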

How the data were processed

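The data were a deposited table of whole-number read counts per gene for 49671 genes in 9 libraries, 3 in each of 3 groups. The authors' steps, per the submitters' processing notes, included STAR (2.7.1a), featureCounts and mm10. Annotation release, strand setting and mate counting were not given in the sources used here. In each library 70.6% to 78.5% of counts from 1 to 10 were even, so that both mates of a fragment may have been counted. Reads of castaneus alleles that differ from the reference may be lost. Per the labels' protocols, total RNA was depleted of ribosomal RNA with a stranded kit. Names and exon lengths came from GENCODE M21, which held 49412 of the identifiers. The 259 unnamed rows took up to 0.0359% of the counts of a library. In all, 0 columns of values were left unused.

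Genes were kept by filterByExpr of edgeR 4.0.16 (R 4.3.3), which left 18374, and scaled with TMM factors of 0.926 to 1.122. The quasi-likelihood model was fitted to all 9 libraries together with the group as its term and 6 residual degrees of freedom. The tests were two-sided, with Benjamini-Hochberg adjustment over all genes and a threshold of 0.05. Standard errors are the log2 fold change over the square root of F. Alternatives used DESeq2 1.42.0, limma 3.58.1, other scalings and filters, a replicate block and fits without each library. Data were simulated for stimulated against unstimulated cells (17879 genes), with 66 or 67 well-counted genes changed at each size. The test called 13.4%, 71.6% and 95.5% of genes changed by 0.5, 1 and 2 on the log2 scale. In the real comparison 66.0% of genes were called, so that these shares do not carry over to it.

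The members, gene lists and tests were chosen with earlier results of these data known. Values in every library are given for the 4 cytosolic and 3 mitochondrial members with the largest change and the 2 and 2 with the smallest or opposite change in each of the first 2 comparisons, and for Lars2, Wars, Gars, Kars and Qars. Most other lists are given by counts and by called genes that moved most each way. Irf1, Aimp1 and Eomes were named after they were seen. Some genes of these lists are not reported here, so that the named genes are not always those at the extremes, and the mitochondrial charging partners are given without a count.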

Additional observations from a re-analysis of the deposited data

How the results depend on the processing

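The class counts, class medians and single members were recomputed in 19 alternative analyses (18 for Pars2, 20 for the class medians), and the subgroups and related lists were not. The count of 20 cytosolic members higher on stimulation held in all 19, and the cytosolic members lower with the inhibitor numbered 13 to 18. With upper-quartile scaling the medians on stimulation were 1.89 for cytosolic and 0.39 for mitochondrial members, with 4 mitochondrial members lower and Tars2 at 0.00. With the same scaling the inhibitor values were 0.12 for the mitochondrial median (4 members higher), 0.07 for Iars, 0.11 for Sars, 0.09 for Lars2, 0.05 for Pars2 and 0.00 for Sars2. This scaling moved the median of all genes by more than 0.1 in both comparisons, to -0.27 and 0.16. Without the low-count filter the median of all genes with the inhibitor was 0.30. Without Lars2 the mitochondrial median on stimulation was 0.75. Limiting the test to genes of at least 10 CPM, which tests fewer genes, gave 6875 calls for stimulated and 5829 for inhibitor against unstimulated cells, 59.5% and 59.2% of them higher, against 48.5% in the main analysis of stimulation; Mars2 was then at -0.02 with the inhibitor. Without the low-count filter 1 mitochondrial member fell on stimulation and Mars2 was again at -0.02. With nuclear protein-coding genes only, 3 mitochondrial members were higher with the inhibitor, Sars was at 0.04 and Lars2 at 0.02. In fits of only the 2 groups compared, 2 mitochondrial members were higher with the inhibitor and 0 were lower than in unstimulated cells. The cause of these changes was not tested.

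Leaving out 1 library at a time gave 0 to 2 mitochondrial members lower on stimulation, 1 to 2 higher with the inhibitor (2 without inhibitor replicate 1), and 0 to 1 lower with the inhibitor than in unstimulated cells. Ears2 accounts for that last call (-0.54, adjusted p = 0.048), which was lost without inhibitor replicate 1, any stimulated library, or unstimulated replicate 1 or 3. Small values with the inhibitor turned sign between single-library omissions, with ranges of -0.04 to 0.10 for Mars2, -0.07 to 0.28 for Ears2, -0.09 to 0.08 for Sars, -0.24 to 0.13 for Pars2 and -0.14 to 0.03 for Lars2. Against unstimulated cells Fars2 ranged from -0.17 to 0.06. These ranges include the omission of unstimulated replicate 2 and inhibitor replicate 1 together, chosen after the data were seen, in which 3 mitochondrial members were higher with the inhibitor. Depth limited none of the 36 members to fewer than 215 counts.

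The replicate numbers did not meet the rule for pairing the samples: deviations from the group means correlated by 0.144, 0.107 and 0.078 between same-numbered stimulated and inhibitor libraries and by -0.194 to 0.005 between unstimulated and other libraries of the same number. Each stimulated library correlated best with the inhibitor library of its own number, a hint from the data and not from the design. With the replicate block the counts of genes called were 11707, 7582 and 9125 in the 3 comparisons, the cytosolic members numbered 20 higher on stimulation and 17 lower with the inhibitor (Rars lost, adjusted p = 0.063), the mitochondrial members higher on stimulation numbered 10 with Tars2 gained (0.22, adjusted p = 0.041 in edgeR) and Wars2 lost, and 0 mitochondrial members were lower with the inhibitor than in unstimulated cells.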
